A study of Homo sapiens with 3 samples.

Results

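The 34 genes described here, of the thioredoxin, glutathione and NRF2 antioxidant systems, were followed across RNA sequencing libraries of cells labelled KG1a, a human acute myeloid leukaemia line. The 34 genes were chosen by name from 58735 Ensembl genes, by the role of their proteins, and fall into 8 systems: peroxiredoxins, the thioredoxin system, glutathione synthesis and recycling, glutathione peroxidases, glutathione transferases, glutaredoxins, superoxide and catalase genes, and NRF2 control. The series holds 3 libraries under 1 batch label. In 1 library, the control, the cells had received lentivirus with a control short hairpin RNA (shCtrl, genotype wild type). In the other 2 libraries, knockdown 1 and knockdown 2, they had received lentivirus with a hairpin against TRAF7 (shTRAF7, genotype TRAF7 knockdown), an E3 ubiquitin ligase. The labels do not say whether these libraries came from separate cultures or separate hairpins, so a p-value here measures only how far these samples differ among themselves, which may be technical variation.

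Assigned reads ranged from 16014485 to 16254461 per library, and the 34 genes together took 0.481% of them in the control, beside 0.568% in knockdown 1 and 0.591% in knockdown 2. TRAF7 was at 33.6% of the control in knockdown 1 and at 39.4% in knockdown 2. The label of the cells was not borne out by its best known surface antigen, CD34. CD34 had 0 reads in the control, which allows up to 0.0193 FPKM at 3 reads, 1 read in knockdown 1 and 10 in knockdown 2. FPKM here are reads scaled to exon length and to a divisor for each library, which is not its total of assigned reads. FLT3 and PROM1 had 0 reads in every library, whereas the leukocyte antigen genes SPN and PTPRC were read in all 3. In the order control, knockdown 1, knockdown 2, CD33 was at 5.37, 2.66 and 5.48 FPKM and KIT at 0.447, 1.05 and 1.43. CD7 had 9, 5 and 5 reads in that order. The cells are therefore called here only by their label. Red cell genes were expressed in all 3 libraries, with the erythroid factor GATA1 at 128, 104 and 116 FPKM in the order control, knockdown 1, knockdown 2. The 14 erythroid markers summed to 356, 514 and 520 FPKM. Of the 10 that were tested 5 were higher in both knockdown libraries and 2 lower, beside 42.5% and 30.8% of all genes tested. By limma-voom 4 erythroid markers rose: HBA1, at 394% and 326% of the control (adjusted p = 1.44e-05), HBA2, HBG1 and HBZ, the last at 167% and 203% (adjusted p = 0.0279). HBA1 and HBA2 are near-identical copies, as are HBG1 and HBG2, so the split of reads within each pair is uncertain. The myeloid marker AZU1 fell to 25.9% and 44.7% of the control (limma-voom adjusted p = 0.0391). By limma 0 markers passed. The other marker lists summed to 15.4, 8.53 and 7.97 FPKM for 11 myeloid markers, with ELANE at 0 reads in every library, to 9.55, 6.24 and 8.45 for 8 lymphoid markers, with MS4A1 and IL7R at 0 reads, and to 132, 162 and 145 for 8 stromal and epithelial markers. Reads on sense intronic genes numbered 553 RPM (per library of fixed size) in the control, beside 448 in knockdown 1 and 475.5 in knockdown 2. Several antioxidant genes, PRDX2 and CAT among them, are abundant in red cells, and the part of the erythroid markers or of intronic reads in the results that follow was not tested. In bulk samples, fewer cells of a type and less RNA per cell cannot be told apart.

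Cells remove hydrogen peroxide and repair oxidised proteins through a pair of parallel relays that both draw electrons from NADPH. In the thioredoxin relay, thioredoxin reductase reduces thioredoxin, which in turn reduces the peroxiredoxins, the enzymes that take up most cellular peroxide. In the glutathione relay, glutathione reductase keeps the tripeptide glutathione reduced for glutathione peroxidases, glutathione transferases and glutaredoxins. NRF2, the transcription factor encoded by NFE2L2, induces many of these genes. It is held at a low level by KEAP1, which presents it to a cullin ubiquitin ligase until oxidants or electrophiles modify KEAP1.

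Of the 34 genes, 31 averaged 1 FPKM or more and were tested, and 3 (GPX1, GPX7 and GLRX) did not reach it. Of the 31 genes tested, 27 were higher than the control in both knockdown libraries, 0 were lower in both and 4 lay on either side of it (GCLC, GPX4, TXN2 and PRDX5). Over all 12640 genes tested, 42.5% were higher in both and 30.8% lower in both. The median log2 fold change of the 31 genes was 0.24 in the fit, 0.23 in knockdown 1 and 0.25 in knockdown 2, where the medians over all genes tested were 0.040, 0.056 and 0.030. Both knockdown libraries were compared with the same control library, so their fold changes share its error. By limma with intensity trend on log2(FPKM + 1), 0 of the 31 genes passed an adjusted p of 0.05 over all genes (0% of all genes passed, and the smallest adjusted p among the 31 was 0.274). At an unadjusted limma p under 0.05 stood 10 of the 31, all higher, beside 9.19% of all genes at that level in either direction and 5.46% that were higher. By limma-voom on the whole reads behind the FPKM values, 1 of 32 genes measured, PRDX1, passed over all genes, beside 0.865% of all genes. Scaling each library to all assigned reads moved the median of all genes from 0.056 to −0.057 in knockdown 1, and then 19 of the 31 were higher in both, where 29.8% of all genes were higher and 43.8% lower. Quantile normalization also left 19 higher in both (38.6% of all genes), and median-of-ratios rescaling 25 (36.4% of all genes). The number lower in both was 1 with scaling to all assigned reads, 2 under quantile normalization and 0 under median-of-ratios rescaling.

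**Figure D1:**
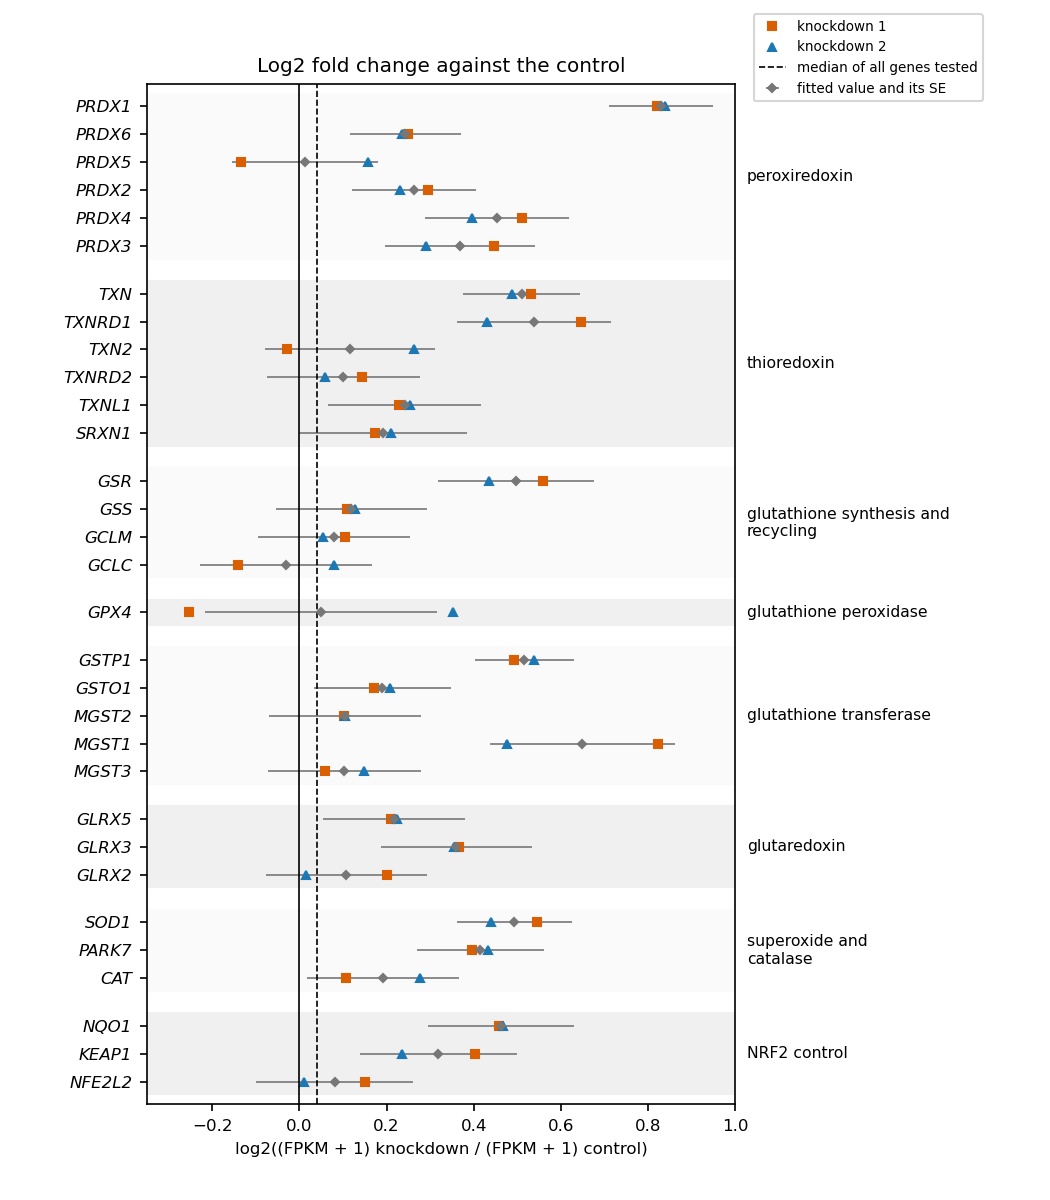
Log2 fold change on the log2(FPKM + 1) scale (horizontal axis) of the 31 antioxidant genes tested, grouped by system. Squares and triangles are knockdown 1 and knockdown 2 against the same control library, diamonds with bars the fitted value and its SE, and the dashed line the median of all genes tested at 0.040. PRDX1 lies farthest to the right at 0.83, and GPX4, PRDX5, TXN2 and GCLC have their knockdown libraries on opposite sides of 0.

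Well expressed genes in general, and not these 34 alone, were more often higher in the knockdown libraries. Among tested protein-coding genes averaging 10 FPKM or more, 62.6% were higher in both libraries and 16.1% lower in both. In the class from 40 to under 100 FPKM, 73.0% of 705 genes were higher in both with a median log2 fold change of 0.23, and of the 8 antioxidant genes there 6 were higher in both, with a median of 0.20. At 100 FPKM and over, 80.2% of 324 genes were higher in both with a median of 0.23, and 7 of 8 antioxidant genes were, with a median of 0.45. In the class from 10 to under 40 FPKM 58.5% of 3165 genes were higher in both with a median of 0.13, and 8 of 8 antioxidant genes were, with a median of 0.22. From 1 to under 10 FPKM, 34.7% of 5703 genes were higher in both with a median of −0.0053, and 6 of 7 antioxidant genes were, with a median of 0.11. Genes with short transcripts were also higher: in the shortest quartile by exon length, from 207 to 3238 bases, the median was 0.15, and in the longest quartile it was −0.0035. The shortest quartile held 15 of the 31 antioxidant genes, with a median of 0.24. Level and length together gave a closer match: 1405 protein-coding genes averaged 10 FPKM or more and lay in the shortest quartile. Of these, 72.8% were higher in both libraries, with a median of 0.237. The 14 antioxidant genes among them had a median of 0.253, and 11 of the 14 were higher in both.

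**Figure D2:**
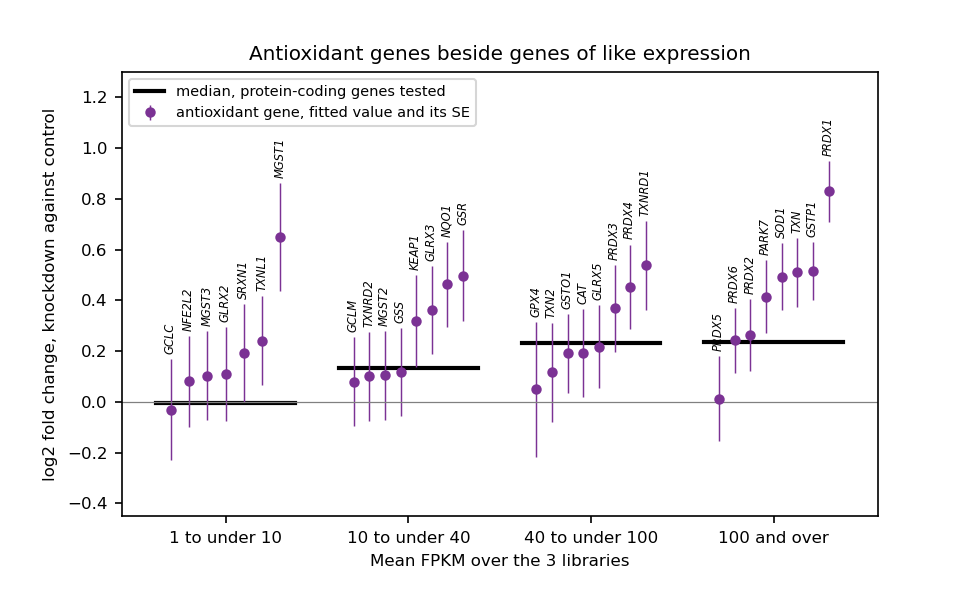
Fitted log2 fold change (vertical axis, bars are SE) of each antioxidant gene tested, in 4 classes of mean FPKM (horizontal axis). Thick lines are the medians of all tested protein-coding genes of the class, at −0.0053, 0.13, 0.23 and 0.23. PRDX1 at 0.83, MGST1 at 0.65 and TXNRD1 at 0.54 stand above the line of their class, and PRDX5, GPX4 and TXN2 below it.

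The peroxiredoxins were the most abundant of the 8 systems, summing to 752 FPKM in the control, beside 974 in knockdown 1 and 996 in knockdown 2. PRDX1, a cytosolic peroxiredoxin and a known NRF2 target (ENSG00000117450, chromosome 1, positions 45511036 to 45523047, minus strand, GRCh38), was at 185 FPKM in the control (95% Poisson interval 179 to 190, 4744 reads), beside 327 in knockdown 1 (320 to 334, from 7740 reads) and 331 in knockdown 2 (324 to 338, from 8193 reads). Both knockdown libraries lay well above the control and close to each other, at 177% and 179% of it. On the log2 scale the fitted fold change came to 0.83 ± 0.12 (SE, limma adjusted p = 0.274). PRDX1 rose by limma-voom (log2 fold change 0.83 ± 0.18, SE, adjusted p = 0.0135) and by limma among protein-coding genes only (adjusted p = 0.0294), and its adjusted p by limma stayed above 0.05 in the other settings tried. It was the only one of the 31 genes at least 1.5-fold above the control in both libraries, as were 2.75% of all genes tested, and 0 of the 31 lay that far below it in both, as did 3.69% of all genes. PRDX1 has 1 processed pseudogene in the annotation, with 0 reads assigned in every library, and its span overlaps MMACHC on the opposite strand, with 293 to 317 reads.

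The other peroxiredoxins differed less from the control. PRDX4, the peroxiredoxin of the endoplasmic reticulum, was at 44.8 FPKM in the control, beside 64.2 in knockdown 1 and 59.3 in knockdown 2. PRDX3, its mitochondrial relative, was at 40.7, 55.8 and 50.01 FPKM in the same order, and the intervals of the 2 knockdown libraries did not overlap. For both genes the control was the lowest library, with log2 fold changes of 0.45 ± 0.17 and 0.37 ± 0.17 (SE, limma adjusted p = 0.524 and 0.579). PRDX2, the cytosolic form that red cells hold in large amounts, was at 113, 139 and 133 FPKM. Its span overlaps HOOK2 on the same strand, with 736, 609 and 582 reads, and strand cannot tell apart reads shared by both genes. PRDX6, which reduces peroxidised phospholipids with the help of glutathione, was at 186, 221 and 219 FPKM. PRDX2 and PRDX6 were at 117% to 123% of the control, near the general shift of genes at their level. Their log2 fold changes were 0.26 ± 0.14 and 0.24 ± 0.13 (SE, limma adjusted p = 0.624 and 0.609), and PRDX6 was at −0.012 under quantile normalization. PRDX5, found in mitochondria, peroxisomes and cytosol, did not share the pattern: it was at 182 FPKM in the control (176 to 189), beside 166 in knockdown 1 (159 to 173) and 203 in knockdown 2 (196 to 211). Its knockdown libraries lay on opposite sides of the control with no overlap of the intervals, and the fitted log2 fold change of 0.012 ± 0.17 (SE, limma adjusted p = 0.988) lies between them.

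**Figure D3:**
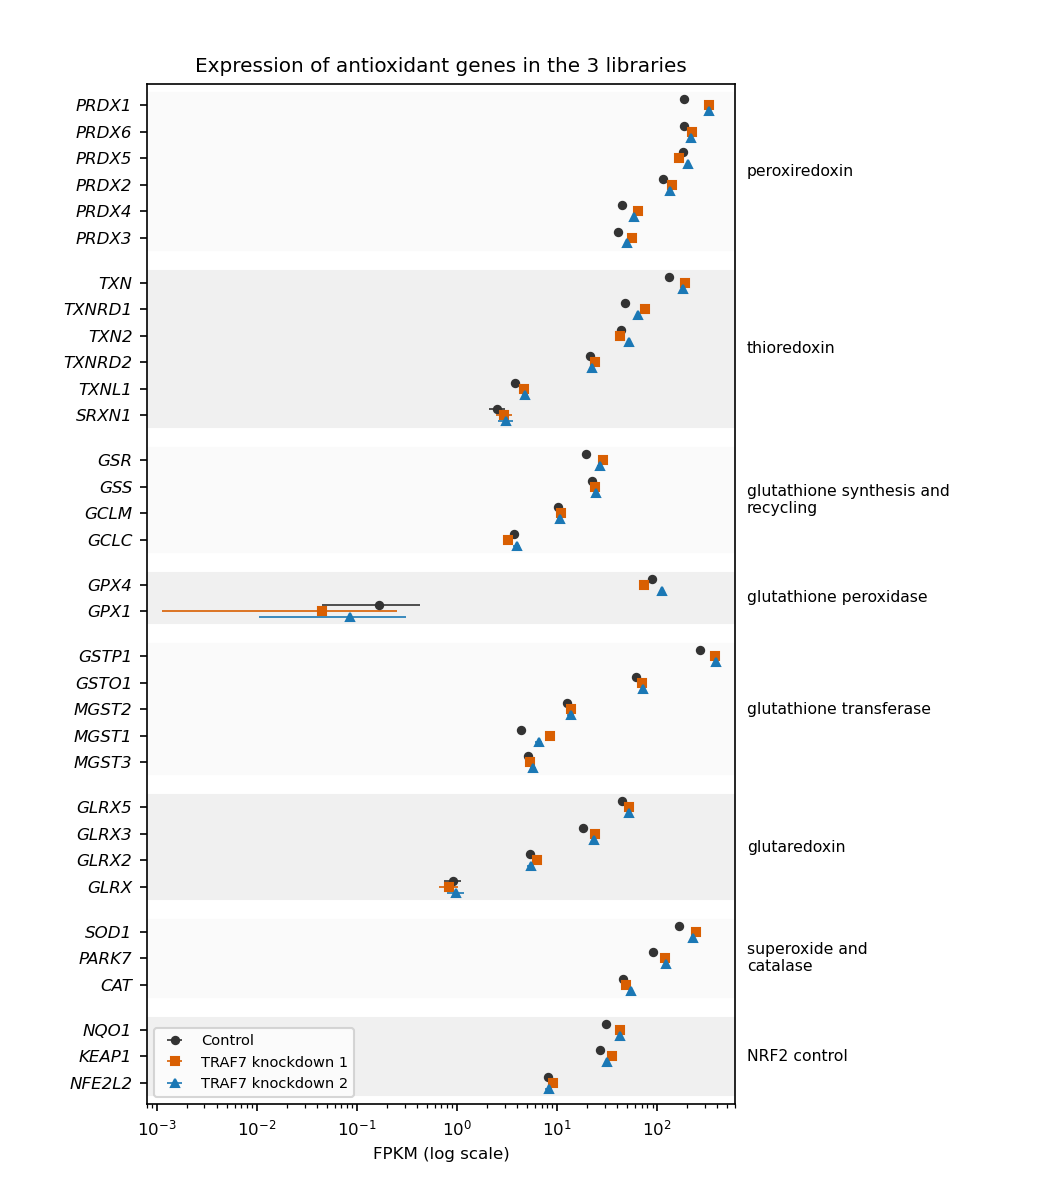
FPKM on a log axis (horizontal) of 33 of the 34 antioxidant genes in each library, grouped by system, with exact 95% Poisson intervals of the reads (counting error only). GPX7 is left out, having 0 reads in 2 libraries. GSTP1 is the most abundant gene (268, 378 and 390 FPKM) and GPX1 stands alone far to the left, under 0.2 FPKM.

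In the thioredoxin system the cytosolic pair of thioredoxin and its reductase was higher in both knockdown libraries, and the mitochondrial pair differed little or unevenly. TXN, which encodes cytosolic thioredoxin (chromosome 9, 110243811 to 110256640, minus strand), was at 130.02 FPKM in the control (125 to 135, 2507 reads), beside 188 in knockdown 1 (182 to 195) and 183 in knockdown 2 (177 to 189). TXNRD1, the selenoprotein that reduces it (chromosome 12, 104215779 to 104350305, plus strand), was at 47.6 (46.3 to 48.9, 5388 reads), 75.0 (73.3 to 76.7) and 64.4 (62.9 to 66.0) FPKM. For both, every knockdown library lay above the control, and for TXNRD1 the 2 knockdown libraries also differed from each other beyond counting error. Their log2 fold changes were 0.51 ± 0.13 and 0.54 ± 0.18 (SE, limma adjusted p = 0.443 and 0.492, limma-voom adjusted p = 0.244 and 0.164). Mitochondrial thioredoxin, TXN2, was at 43.3, 42.5 and 52.2 FPKM, with knockdown 1 level with the control and knockdown 2 above it. Mitochondrial thioredoxin reductase, TXNRD2, was at 21.4, 23.8 and 22.4 FPKM. Their fitted changes were 0.12 ± 0.20 and 0.10 ± 0.18 (SE, limma adjusted p = 0.885 and 0.890), and both had a value below 0 under quantile normalization (−0.072 and −0.028). RPL18AP3, a pseudogene inside TXNRD1 on the same strand, took 1862 to 1935 reads. Whether the cytosolic pair differs in its change from the mitochondrial pair was not tested. TXNL1, a thioredoxin-like protein that binds the proteasome, was at 3.84, 4.67 and 4.77 FPKM. SRXN1, sulfiredoxin, which repairs overoxidised peroxiredoxins and is a known NRF2 target, was at 2.52, 2.98 and 3.08 FPKM on 115 to 135 reads, and its intervals overlapped across the 3 libraries.

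Glutathione genes split by step: the reductase was higher in both knockdown libraries and the synthesis genes stood near the control. GSR, glutathione reductase (chromosome 8, 30678061 to 30727999, minus strand), was at 19.4 FPKM in the control (18.3 to 20.5, 1232 reads), beside 29.1 in knockdown 1 (27.7 to 30.5) and 26.6 in knockdown 2 (25.3 to 27.9), a log2 fold change of 0.50 ± 0.18 (SE, limma adjusted p = 0.516). GCLC, the catalytic subunit of the rate-limiting glutamate-cysteine ligase, was at 3.70, 3.26 and 3.96 FPKM, with the control between the knockdown libraries. GCLM, the modifier subunit of the same ligase, was at 10.2, 11.0 and 10.6 FPKM, and GSS, which adds the last residue, at 22.2, 24.1 and 24.4. The log2 fold changes of the 3 synthesis genes were −0.031 ± 0.20, 0.079 ± 0.17 and 0.12 ± 0.17 (SE), all smaller than their errors. Limma's adjusted p was 0.973, 0.918 and 0.860 for them.

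Of the glutathione peroxidases only GPX4 was measured well. GPX4, the selenoprotein that reduces lipid peroxides in membranes and whose loss leads to ferroptosis (chromosome 19, 1103926 to 1106791, plus strand), was at 88.3 FPKM in the control (85.2 to 91.5, 3011 reads), beside 73.9 in knockdown 1 (70.9 to 77.0, from 2322 reads) and 113 in knockdown 2 (109 to 117, from 3713 reads). The knockdown libraries were at 83.7% and 128% of the control, on opposite sides of it, the widest split among the 31 genes, and the fitted change of 0.049 ± 0.27 (SE, limma adjusted p = 0.969) averages these. GPX1, the cytosolic selenoprotein peroxidase (chromosome 3, 49357171 to 49358600, minus strand), had 4, 1 and 2 reads, or 0.166, 0.0449 and 0.0860 FPKM. GENCODE release 29 types GPX1 as a polymorphic pseudogene, and 2 pseudogene copies of it held 37, 22 and 25 reads, more than GPX1 itself, so its level is uncertain. GPX7, of the endoplasmic reticulum, had 0 reads in the control and in knockdown 1 (up to 0.105 and 0.114 FPKM at 3 reads) and 1 read in knockdown 2.

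Of the 5 glutathione transferases, GSTP1 and MGST1 had the largest differences from the control. GSTP1, the cytosolic transferase of class pi (chromosome 11, 67583595 to 67586656, plus strand), was the most abundant of the 34 genes at 268 FPKM in the control (262 to 274, 8650 reads), beside 378 in knockdown 1 (371 to 385) and 390 in knockdown 2 (383 to 397). MGST1, a microsomal transferase, was at 4.41 FPKM (4.05 to 4.79, 554 reads), 8.57 (8.04 to 9.12) and 6.53 (6.08 to 7.00). The knockdown libraries agreed closely for GSTP1, at 141% and 146% of the control, and less so for MGST1, at 194% and 148%. Their log2 fold changes were 0.52 ± 0.11 and 0.65 ± 0.21 (SE, limma adjusted p = 0.403 and 0.490, limma-voom adjusted p = 0.153 and 0.0908). GSTO1, the omega-class transferase, was at 62.1, 70.1 and 71.9 FPKM. The microsomal genes MGST2 at 12.6, 13.6 and 13.7 FPKM and MGST3 at 5.13, 5.38 and 5.79 had intervals that overlapped across the 3 libraries.

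Among the glutaredoxins, which reduce proteins bound to glutathione, GLRX3 was at 18.2, 23.7 and 23.5 FPKM and GLRX5 at 44.7, 51.9 and 52.3. Both of these bind iron-sulfur clusters, GLRX5 in mitochondria, and in both the control was the lowest library and the knockdown libraries were alike (log2 fold changes 0.36 ± 0.17 and 0.22 ± 0.16, SE, limma adjusted p = 0.584 and 0.713). Mitochondrial GLRX2 was at 5.39, 6.34 and 5.46 FPKM, with knockdown 2 level with the control. The classical cytosolic glutaredoxin, GLRX, was at 0.910, 0.829 and 0.973 FPKM on 84 to 103 reads, below the level tested by limma. It lies within the span of RHOBTB3 on the opposite strand (20.3, 15.1 and 16.7 FPKM), and reads shared by overlapping genes cannot be told apart unless counting used strand, a setting not given in the sources used here.

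SOD1, which turns superoxide into hydrogen peroxide in the cytosol (chromosome 21, 31659622 to 31668931, plus strand), was at 167 FPKM in the control (163 to 171, 5696 reads), beside 244 in knockdown 1 (239 to 250) and 227 in knockdown 2 (222 to 232). PARK7, whose product DJ-1 has a cysteine that senses oxidants, was at 89.9, 119 and 122 FPKM. Both had the control as the lowest library by a margin wider than counting error, with log2 fold changes of 0.49 ± 0.13 and 0.42 ± 0.15 (SE, limma adjusted p = 0.443 and 0.501). Processed pseudogenes of SOD1 took 150, 41 and 72 reads, at most 2.57% of the reads on the family. CAT, the peroxisomal catalase, was at 45.3, 48.8 and 55.1 FPKM, where the interval of knockdown 1 (47.0 to 50.7) met that of the control (43.6 to 47.0). Its log2 fold change of 0.19 ± 0.17 (SE, limma adjusted p = 0.760) was near the median of genes at its level, and it was at −0.0017 under quantile normalization.

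**Figure D4:**
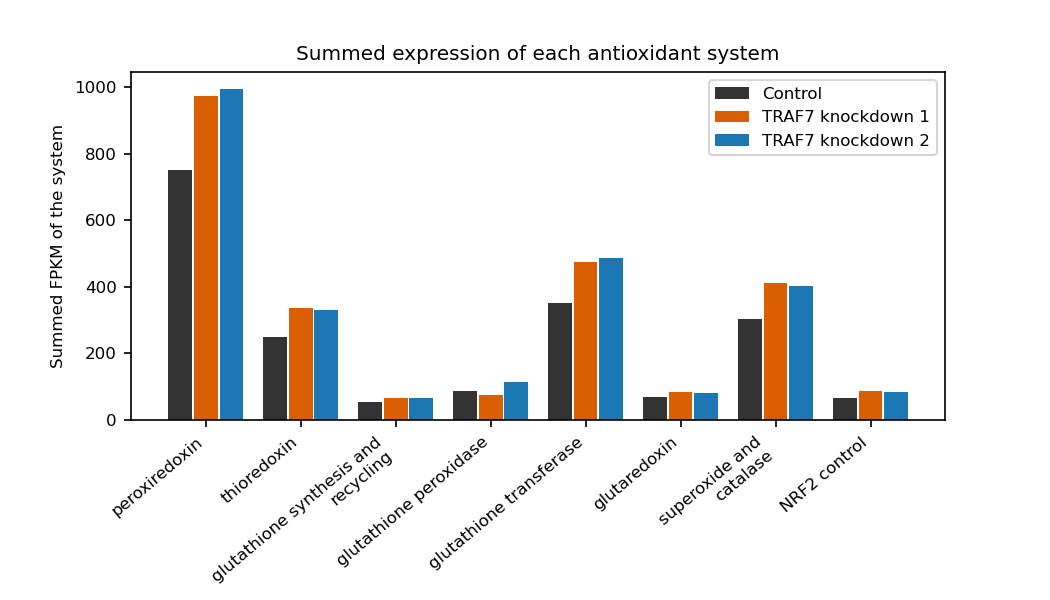
Summed FPKM of the genes of each system (vertical axis, from 0) in the control and both knockdown libraries, with no error bars because each bar is 1 library. The peroxiredoxins lead at 752, 974 and 996, and the glutathione peroxidases, which are GPX4 almost alone, are the one system with a knockdown library below the control (88.5, 73.9 and 113).

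NRF2 control genes showed the transcription factor near the control and its repressor and a target above it. NFE2L2, which encodes NRF2 (chromosome 2, 177227595 to 177392697, minus strand), was at 8.16 FPKM in the control (7.61 to 8.74, 824 reads), beside 9.18 in knockdown 1 (8.57 to 9.81) and 8.23 in knockdown 2 (7.67 to 8.82), and the intervals overlapped. KEAP1, its repressor, was at 26.8 (25.5 to 28.1), 35.7 (34.2 to 37.3) and 31.7 (30.3 to 33.1) FPKM. NQO1, a quinone reductase and a standard readout of NRF2 (chromosome 16, 69706996 to 69726951, minus strand), was at 30.6 (29.2 to 32.1), 42.5 (40.7 to 44.3) and 42.7 (41.0 to 44.5). The log2 fold changes were 0.081 ± 0.18 for NFE2L2, 0.32 ± 0.18 for KEAP1 and 0.46 ± 0.17 for NQO1 (SE, limma adjusted p = 0.918, 0.634 and 0.523). NFE2L2 transcript does not measure NRF2 protein, which is set mainly by its degradation.

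Known NRF2 targets outside the 34 genes did not move as 1 group. Of 30 such genes on a list, 26 were tested, 14 (53.8%) were higher in both knockdown libraries and 6 lower in both. The median log2 fold change was 0.082. Over all genes tested, 42.5% were higher in both and 30.8% lower in both, with a median of 0.040. By limma 0 passed over all genes, and by limma-voom 1 did, beside 0.865% of all genes. This was FTL, the ferritin light chain, at 1694, 2640 and 2726 FPKM (limma-voom adjusted p = 0.0163, limma adjusted p = 0.206). OSGIN1, an oxidative stress growth inhibitor, was at 3.61, 6.43 and 7.93 FPKM (limma adjusted p = 0.403), and the carbonyl reductase CBR1 at 4.54, 7.84 and 6.10 (0.541). IDH1, an NADPH-making isocitrate dehydrogenase, had the control as its highest library at 20.5 FPKM, against 9.09 and 16.0 in the knockdown libraries (log2 fold change −0.72 ± 0.32, SE, limma adjusted p = 0.566). HMOX1, haem oxygenase 1 and one of the most inducible NRF2 targets, had 0 reads in every library (up to 0.0739 FPKM in the control at 3 reads). SLC7A11, which imports the cystine used for glutathione, was at 16.8, 16.6 and 13.99 FPKM, and ME1, malic enzyme, at 19.7, 21.1 and 20.1; these last 3 genes fall outside the naming rule and were chosen after their values were seen. Among the 34 genes, the known targets PRDX1, TXNRD1, GSTP1, GSR and NQO1 were at 135% to 179% of the control, SRXN1 at 118% to 122%, and the known targets GCLC and GCLM at 88.2% to 108%.

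**Figure D5:**
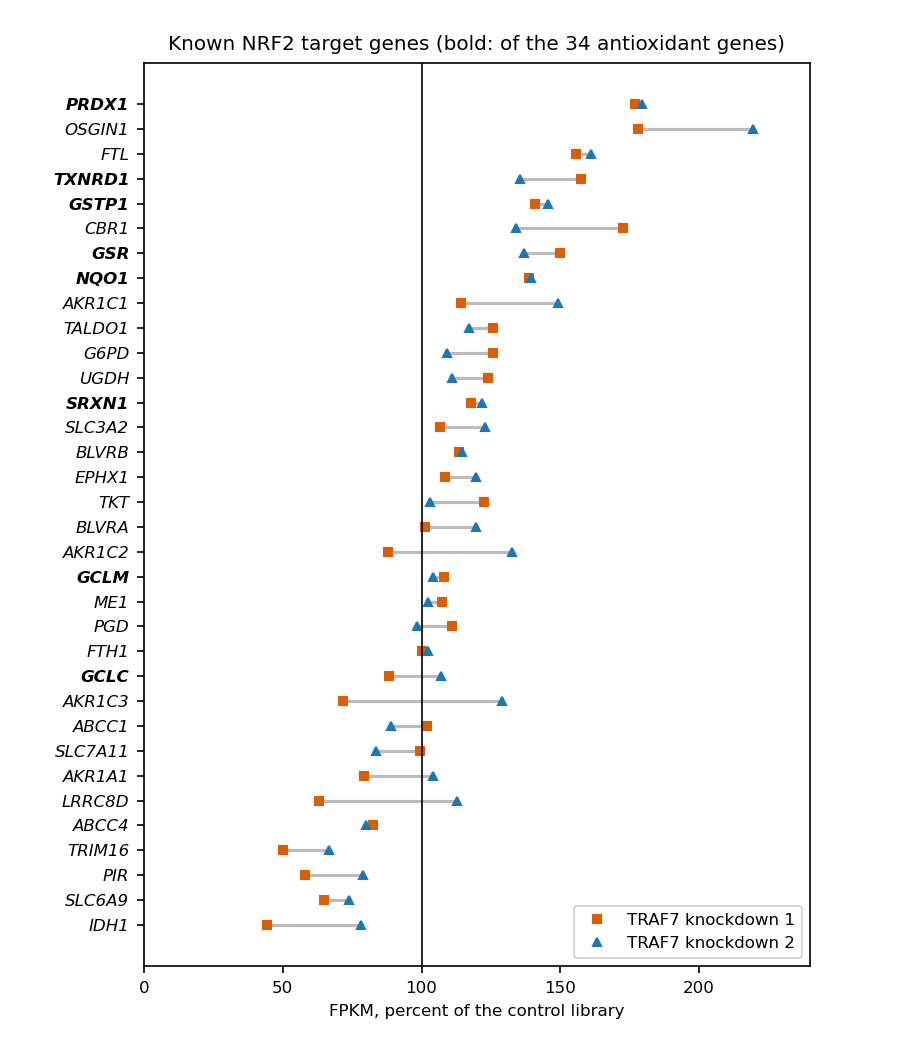
FPKM as a percent of the control library (horizontal axis, the line marks 100) for known NRF2 target genes in knockdown 1 (squares) and knockdown 2 (triangles), ordered by fitted log2 fold change. Gene names in bold belong to the 34 antioxidant genes. OSGIN1 reaches 178% and 219% and PRDX1 177% and 179%, whereas IDH1 lies at 44.2% and 78.03%.

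NRF2 with a small MAF partner binds the antioxidant response element, whose core is TGACNNNGC, so promoters of the 34 genes were read for these letters on both strands. RefSeq promoter windows of 300 bases (250 before the transcript start and 50 after, GRCh38.p14) were found for 26 of the 34 genes, as 38 windows, and not for GSS, GSR, MGST2, GLRX3, TXN2, PRDX1, PRDX6 and SOD1. The core stood in 9 of the 38 windows (23.68%), of 8 genes, and in 13.35% of all 35116 windows. The letters TGACTCAGC, the core with an AP-1 motif inside it, stood in 1 of the 38 and in 0.561% of all. Matches before the start in 6 of the 8 genes are shown, because these genes share the core and range in fitted log2 fold change from 0.079 for GCLM to 0.54 for TXNRD1. The remaining genes are MGST1, with its match 31 bases after the start, and TXNL1, with its match 9 bases before it. Further matches before the start, not shown, lay at 54 bases in KEAP1, 226 in GSTO1 and 8 in TXNRD1. Capitals mark the core or its reverse complement, each sequence runs 5′ to 3′ on the gene's strand, and the distance of its first capital before the transcript start is given.
GSTP1 (chr11:67583726-67583774, plus strand, 66 bases before): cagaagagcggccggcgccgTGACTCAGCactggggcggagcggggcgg
TXNRD1 (chr12:104215660-104215708, plus strand, 99 bases before): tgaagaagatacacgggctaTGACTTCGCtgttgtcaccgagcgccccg
TXNRD1, a later start (chr12:104286910-104286958, plus strand, 102 bases before): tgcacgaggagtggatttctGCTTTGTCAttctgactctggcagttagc
PARK7 (chr1:7961608-7961656, plus strand, 83 bases before): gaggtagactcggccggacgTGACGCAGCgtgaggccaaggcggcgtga
KEAP1 (chr19:10502774-10502822, minus strand, 31 bases before): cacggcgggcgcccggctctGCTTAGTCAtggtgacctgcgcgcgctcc
GCLM (chr1:93909436-93909484, minus strand, 34 bases before): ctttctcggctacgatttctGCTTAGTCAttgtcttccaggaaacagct
GSTO1 (chr10:104254711-104254759, plus strand, 161 bases before): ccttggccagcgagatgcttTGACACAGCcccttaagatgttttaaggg
Of the 8 genes with the core, MGST1 had the largest log2 fold change, 0.65, followed by TXNRD1, GSTP1 and PARK7 at 0.54, 0.52 and 0.42. TXNL1, GSTO1 and GCLM were at 0.24, 0.19 and 0.079. KEAP1 and GCLM share the same 9 capitals in the sequences shown, with log2 fold changes of 0.32 and 0.079. KEAP1 also holds its further match, and GCLM has no other. The NQO1 window held no match, which says only that these letters are not in this window. A match is a description of letters and not a bound site.

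Other genes around these systems were counted from 5 further lists. For comparison, 42.5% of all genes tested were higher in both knockdown libraries and 30.8% lower in both. By limma 0% of all genes passed, and by limma-voom 0.865%. Of 17 other NRF2 regulators, 16 were tested, 4 (25.0%) were higher in both knockdown libraries and 4 lower, and 0 passed by limma or limma-voom. The ligase subunit RBX1, which works with KEAP1 and its cullin, was at 12.4, 20.2 and 18.1 FPKM (limma adjusted p = 0.478), and PGAM5, a mitochondrial phosphatase that binds KEAP1, at 31.1, 48.9 and 37.3 (0.588). BACH1, a repressor at antioxidant response elements, was at 13.9, 13.1 and 11.3 FPKM and NFE2L1, an NRF2 relative, at 36.2, 29.1 and 34.7 (limma adjusted p = 0.792 and 0.795). Of 25 thioredoxin-fold, selenoprotein and methionine repair genes, 21 were tested, 13 (61.9%) were higher in both and 4 lower, with 0 passing by either test. The selenoproteins SELENOW at 3.90, 6.70 and 6.81 FPKM, SELENOH at 24.1, 35.6 and 32.3 and SELENOK at 7.36, 10.6 and 10.1, and the thioredoxin-like TXNDC17 at 8.80, 13.1 and 12.03, had the largest differences under the naming rule. Each of these 4 had the control as its lowest library (limma adjusted p = 0.443, 0.524, 0.537 and 0.528).

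Of 29 other glutathione and detoxification genes, 19 were tested, 7 (36.8%) were higher in both and 7 lower, with 0 passing by limma or limma-voom. The shares over all genes tested were again 42.5% higher in both and 30.8% lower in both. CHAC2, a glutathione-degrading enzyme, was at 6.64, 9.87 and 9.68 FPKM, and the glyoxalase GLO1, which uses glutathione as a cofactor, at 66.5, 97.1 and 84.9 (limma adjusted p = 0.4996 and 0.528). PTGES2, a prostaglandin synthase, was at 37.4, 54.7 and 44.3 FPKM, whereas OPLAH, which recycles oxoproline to glutamate, had the control as its highest library at 31.4, against 28.3 and 20.1. Of 18 other superoxide and peroxide genes, 8 were tested, 4 were higher in both and 3 lower, with 0 passing by limma or limma-voom. CYBA, a membrane subunit of NADPH oxidase, was at 71.6, 102 and 94.4 FPKM, and RAC1 at 63.8, 78.2 and 79.7. RAC2, the blood cell RAC that activates this oxidase, went the other way at 49.7, 35.0 and 35.5 FPKM (log2 fold change −0.48 ± 0.17, SE, limma adjusted p = 0.495), as did CCS, the copper chaperone of SOD1, at 17.0, 12.6 and 15.5. Of 8 selenoprotein synthesis genes, all tested, 3 (37.5%) were higher in both and 4 lower, with 0 passing by either test. SEPHS1, a relative of selenophosphate synthetase, was at 14.05, 20.6 and 18.9 FPKM and the elongation factor EEFSEC at 7.71, 6.95 and 6.40. TRNAU1AP was at 6.39, 5.74 and 6.13 FPKM and SECISBP2 at 6.24, 6.41 and 6.505, and for these last 3 genes the intervals of all libraries overlapped.

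By place in the cell, a property the choice of genes did not use, 21 genes tested of the cytosol or of several compartments had a median log2 fold change of 0.26, 4 of the endoplasmic reticulum 0.28, and 5 of mitochondria 0.12. The 4 selenoproteins summed to 158, 173 and 200 FPKM, and of the 3 tested TXNRD1 and TXNRD2 were higher in both libraries and GPX4 was split. These differences between compartments were not tested. In 10 of the 31 genes the intervals of the knockdown libraries did not overlap each other, so these libraries differed by more than counting error there. In 20 of the 31 both knockdown intervals lay apart from that of the control. Among these 20 are GPX4 and PRDX5, whose knockdown libraries lay on opposite sides of the control. The same counts were not made over all genes, and intervals narrow as reads rise. These counts therefore do not set the 31 genes apart from other well expressed genes.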

How the data were processed

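The authors deposited 1 FPKM value per Ensembl gene and library, per the file headers. BWA and Bowtie are listed without roles in the submitters' processing notes, as is hg19; counter and strand setting were not given in the sources used here. All 58735 identifiers matched GENCODE release 29 (GRCh38), and FPKM times its exon length gave whole reads for 100% of values above 0 (within 0.05), so positions are given from that release. Over the geometric mean of assigned reads, the implied library divisors equal median-of-ratios factors of the recovered reads. These were 1.04, 0.963 and 1.01 in the order control, knockdown 1, knockdown 2.

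The main test was limma 3.58.1 in R 4.3.3 with trend on log2(FPKM + 1), which understates the change of low genes. It used genes averaging 1 FPKM or more, all 3 libraries and Benjamini-Hochberg adjustment over all genes, with 1 residual degree of freedom from the knockdown pair; the lone control was assumed to vary alike. Limma-voom used genes with a mean of at least 10 reads. Both were run on simulated counts with known fold changes, with a spread set in advance and not taken from these libraries. That run only required the median fold changes to be recovered, and it does not bear on the p-values given here. Poisson intervals and floors (3 reads) cover counting error only. The members and lists were chosen with earlier results of these data known. Named list genes were those called, then up to 4 per list by fold change averaging 5 FPKM or more and with groups apart. Of 129 list symbols 2 had no single identifier (SOD2, GSTT1) and were not used. Alternatives were 3 pseudocounts, 2 filters, no trend, 2 rescalings, limma-voom, protein-coding genes only, each knockdown library alone and, added after seeing the data, scaling to all assigned reads.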

Additional observations from a re-analysis of the deposited data

How the results depend on the processing

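With pseudocounts of 0.1, 0.5 and 5, no filter, a filter of 5 FPKM, no intensity trend, both rescalings and scaling to all assigned reads, 0 members passed, as in the main test; limma-voom and protein-coding genes only each gave 1, PRDX1. The number of members higher in both knockdown libraries was 27, and was 25 among genes averaging 5 FPKM or more and under median-of-ratios rescaling. It was 19 under quantile normalization and scaling to all assigned reads, and 31 in knockdown 2 alone, without knockdown 1. The number lower in both was 0, and was 1 with no filter and with scaling to all assigned reads, 2 under quantile normalization and 4 in knockdown 1 alone, without knockdown 2. The members' median log2 fold change of 0.24 was 0.20 with a pseudocount of 5 and with no filter (0.2007 and 0.2046), 0.19 under median-of-ratios rescaling, 0.13 under quantile normalization and 0.14 with scaling to all assigned reads, and 0.23 to 0.25 with 1 knockdown library left out. Directions turned in 20 of 400 member values, all for genes with fitted changes of at most 0.24. They were GPX4 and PRDX5 under median-of-ratios rescaling (−0.0028 and −0.040), under quantile normalization (−0.23 and −0.23), with scaling to all reads (−0.055 and −0.093) and with 1 knockdown library left out (−0.25 without knockdown 2 to 0.35 without knockdown 1, and −0.13 to 0.16). Quantile normalization also turned PRDX6 (−0.012), TXNRD2 (−0.028), CAT (−0.0017), GSS (−0.021), GSTO1 (−0.043), TXN2 (−0.072) and GCLC (0.022); scaling to all reads turned TXNRD2 (−0.00064), GCLM (−0.018) and NFE2L2 (−0.014). With 1 knockdown library left out, GCLC ranged from −0.14 to 0.078 and TXN2 from −0.029 to 0.26. The median of the glutathione synthesis genes was −0.00012 with scaling to all reads, and that of the glutathione peroxidases, GPX4 alone, turned wherever GPX4 did. The cause was not tested. No paired analysis was possible because there is 1 control library, so no replicate number is shared by 2 pairs. The 115 to 135 reads of SRXN1 and the 84 to 103 of GLRX limit what can be seen for them.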
